A study of Mus musculus with 8 samples.

Results

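The genes described here are the 8 transcription factors *Hnf4a*, *Foxa1*, *Foxa2*, *Foxa3*, *Onecut1*, *Sox9*, *Sox4* and *Ehf*, taken by name from the 46517 genes of the deposited count table, in which all 8 were present. The table holds Smart-seq2 counts of 3491 single cells from livers of healthy adult C57BL6 mice of both sexes, which the authors had sorted into 4 cell classes and 30 clusters. Cholangiocytes had been collected with an antibody against EPCAM, endothelial cells by CD31 or VE-cadherin antibodies or *Cldn5*-GFP, and Kupffer cells with an antibody against CD68. Mesenchymal cells had been collected by the heterozygous reporters *Pdgfrb*-GFP, *Pdgfra*-H2bGFP or *Acta2*-GFP, or with a PDGFRA antibody, while hepatocytes were living cells sorted without a marker. The authors also list *Cspg4*-dsRED mice and combinations of their strains, without saying which cells came from them. The 8 samples are the 4 classes divided by sex, and a sample is called a pool here since no label ties a cell to a mouse. The parenchymal class comprised 1 cholangiocyte cluster, p2, with 157 male and 37 female cells, and 4 hepatocyte clusters, p1 (62 male and 2 female cells), p3 (23 male cells), p4 (59 male cells) and p5 (57 male cells). The remaining 3094 cells are called non-parenchymal and fell into 8 endothelial, 7 immune and 10 mesenchymal clusters.

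The names of the parenchymal clusters were checked against marker lists. All 10 hepatocyte markers were above 10 CPM (counts per 1000000 counts of all genes) in p1, p3, p4 and p5, and *Krt19*, which encodes a keratin of bile duct cells, was at 493 CPM in p2 and at most 0.313 CPM in the hepatocyte clusters. Of the hepatocyte markers, *Alb*, *Ttr*, *Apoa1*, *Tat*, *Fgb* and *Cyp2e1* were also above 10 CPM in p2, from 14.3 to 3598 CPM. *Cps1*, *Cyp2f2*, *Asgr1* and *Pck1* were not. *Spp1*, of the cholangiocyte list, was at 4852 CPM in p2 and 33.0 CPM in hepatocytes. Cells had a median of 228708 counts, and the group medians of the parenchymal cells were 341237 for male cholangiocytes, 88932 for female cholangiocytes and 166805 for male hepatocytes. The plate, as given in the cell names, was unevenly filled. Plate liver_128s held 155 of the 203 hepatocytes, including 82.6% of p3, 94.9% of p4 and 98.2% of p5, and plate liver_062s held 36 of the 37 female cholangiocytes, so that sex and plate cannot be told apart in cholangiocytes. The authors built the clusters from the same transcriptomes, so that genes compared between clusters also served to define them.

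HNF4A is a nuclear receptor that maintains the expression of plasma proteins, lipid transport proteins and metabolic enzymes in hepatocytes. FOXA1, FOXA2 and FOXA3 are forkhead proteins that open chromatin at liver genes, and ONECUT1, also known as HNF6, is a cut-homeodomain factor of the liver and the bile ducts. SOX9 marks the bile duct lineage from the ductal plate onwards, SOX4 acts beside it in duct formation and is also present in endothelium and mesenchyme, and EHF is an ETS factor of simple epithelia. Hepatocytes and cholangiocytes arise from a common hepatoblast, in which most of these factors are present together.

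Promoter sequence is shown for the members in which a motif of another member was found, since liver factors such as HNF4A, the FOXA proteins and ONECUT1 are described as binding one another's promoters. RefSeq gave windows of 300 bases (GRCm38.p6) for 6 of the 8 members. Each window was searched on both strands for the HNF1 motif GTTAATNAT, the HNF4 motif CAAAGTCCA, the FOXA motif TGTTTAC, the ONECUT motif ATCAAT, the SOX motif ACAATG and the ETS motif CGGAAG. Of 32544 RefSeq mouse promoter windows of that length, these were found in 0.808%, 0.479%, 3.66%, 7.42%, 12.4% and 17%. Each stretch is printed 5′ to 3′ on the strand of the gene and ends upstream of the first exon of that promoter, and capitals mark the motif.
Hnf4a: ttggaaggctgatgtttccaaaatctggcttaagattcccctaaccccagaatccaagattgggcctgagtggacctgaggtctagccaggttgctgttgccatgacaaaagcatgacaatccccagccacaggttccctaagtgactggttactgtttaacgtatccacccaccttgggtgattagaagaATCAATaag
Foxa2: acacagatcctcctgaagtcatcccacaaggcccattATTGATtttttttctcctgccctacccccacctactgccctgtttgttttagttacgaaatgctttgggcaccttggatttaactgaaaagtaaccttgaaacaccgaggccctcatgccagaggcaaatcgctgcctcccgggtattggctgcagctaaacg
Foxa1: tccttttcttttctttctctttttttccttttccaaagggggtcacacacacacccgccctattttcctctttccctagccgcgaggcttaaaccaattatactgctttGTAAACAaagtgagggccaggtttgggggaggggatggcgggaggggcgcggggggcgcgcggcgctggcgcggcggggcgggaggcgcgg
The *Hnf4a* stretch lies at chr2:163506607-163506806 on the plus strand, at the more upstream of the 2 *Hnf4a* start sites, and carries the ONECUT motif, which begins at position -59 relative to the RefSeq start, used for all positions here. The *Foxa2* stretch lies at chr2:148047020-148047219 on the minus strand and carries the ONECUT motif on the opposite strand, beginning at position -213. The *Foxa1* stretch lies at chr12:57546162-57546361 on the minus strand, in the first intron of the longer *Foxa1* model of GENCODE vM21, and carries the FOXA motif on the opposite strand, beginning at position -141. None of the 6 motifs was found in the other windows, among them that of the downstream *Hnf4a* start site at chr2:163546905-163547204. The counts are per gene and do not tell the start sites of *Hnf4a* apart.

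With male and female cells together, all 8 members were highest in a parenchymal cluster. They were picked by name as hepatocyte and biliary factors, and the share of all genes highest in a parenchymal cluster was not counted. *Onecut1*, *Foxa2*, *Sox9*, *Sox4* and *Ehf* were highest in cholangiocytes (for *Sox4* in male cells, whereas in female cells e3, e5 and e2 were above p2), *Hnf4a* in the hepatocyte cluster p5, and *Foxa1* and *Foxa3* in the hepatocyte cluster p1. The rank of *Foxa1* rested on 1 cell of p1, and by the share of cells with reads *Foxa1* was highest in p2 and *Foxa3* in p4. The dot plot of the 8 genes over the 30 clusters shows these levels beside the share of cells with at least 1 read.

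**Figure D1:**
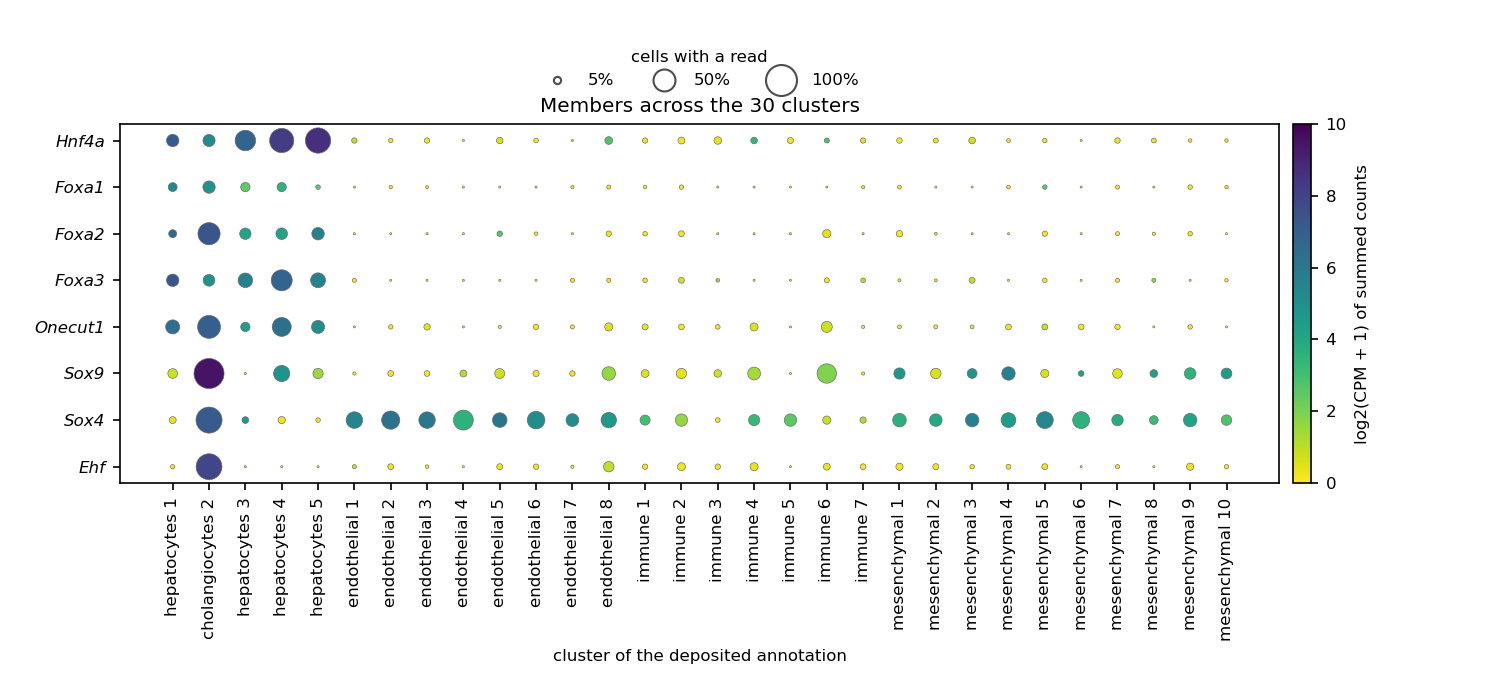
Level of each of the 8 genes (colour, log2(CPM + 1) of the counts summed over a cluster) and share of cells with at least 1 read (dot area, %) in the 30 clusters. Hepatocytes 1, 3, 4 and 5 are p1, p3, p4 and p5, and cholangiocytes 2 are p2. *Hnf4a*, the *Foxa* genes and *Onecut1* stand out in the 5 parenchymal clusters, *Ehf* in p2 only, and *Sox4* also in endothelial and mesenchymal clusters.

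*Hnf4a* (chr2:163506808-163572910, plus strand) was counted in all 4 hepatocyte clusters and, at a lower level, in cholangiocytes. Its level was 141 CPM in p1, 111 CPM in p3, 301 CPM in p4 and 386 CPM in p5 in the male pool, and 39.7 and 17.9 CPM in male and female cholangiocytes. Each hepatocyte cluster was above both cholangiocyte pools. Reads were found in 15.6% of cells in p1 (95% interval 7.76 to 26.9), 43.5% in p3 (23.2 to 65.5), 61.0% in p4 (47.4 to 73.5) and 66.7% in p5 (52.9 to 78.6), and in 14.9% of p2 (10.2 to 20.8). The shares of p4 and p5 lay above those of p1 and p2. Intervals of shares are exact binomial ones over cells, which do not cover the spread between plates or mice. Of p4 and p5, 94.9% and 98.2% of the cells were on plate liver_128s. The protocol has no molecular identifiers, so counts are of reads. In non-parenchymal cells the share was 2.55%, and after thinning each cell to 50000 counts the shares were 54.2% in p4, 52.6% in p5, 11.5% in p2 and 1.20% in non-parenchymal cells.

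In the fit of 6 sums (p1, p3, p4 and p5 of the male pool against p2 of both pools), *Hnf4a* was lower in cholangiocytes by a log2 fold change of -3.78 ± 0.79 (SE, adjusted p = 0.0127, edgeR's quasi-likelihood test, adjusted over 14472 genes by Benjamini and Hochberg). The 4 hepatocyte sums come from the same unnumbered mice, and nothing labels the pools as independent animals, so that p-values measure only the spread between these sums. Of the 8 members, *Sox9* was called higher and *Hnf4a* lower (*Ehf*, with 1 count in hepatocytes, is described without a test), beside 12.3% of all genes called higher and 7.28% called lower at an adjusted p under 0.05 and a fold of at least 2, and the median over all genes was 0.13. The call of *Hnf4a* rested on the choice of sums. With 1 sum per plate the log2 fold change was -2.18 (adjusted p = 0.285), with the plate as a block it was 1.84 (adjusted p = 0.862), and without the male or the female cholangiocyte pool the adjusted p was 0.0594 and 0.106 in edgeR's test.

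In cholangiocytes of 6 plates *Hnf4a* ranged from 3.6 to 75.8 CPM (45.8 ± 31.6, mean ± SD), and in hepatocytes it was 314 CPM on plate liver_128s, 310 CPM on liver_707s, 133 CPM on liver_705s and 0 of 12 cells on liver_319s. Of the 4 hepatocyte plates, 3 were above all cholangiocyte plates and liver_319s was below them. On liver_707s and liver_705s only 2 of 12 and 2 of 10 hepatocytes had reads. The highest cholangiocyte plate, liver_844s, rested on 1 of 7 cells. Within plate liver_128s, *Hnf4a* was at 160, 133, 318 and 400 CPM in p1, p3, p4 and p5 and at 75.1 CPM in the 8 cells of p2, of which 1 cell gave 98.6% of the counts. Of the 10 hepatocyte markers counted in cholangiocytes, *Alb* (albumin) was at 52.8% and *Ttr* (transthyretin) at 39.6% of its hepatocyte level, and the other 8 were at 0.218% (*Asgr1*) to 3.17% (*Fgb*). *Hnf4a* itself was at 14.4%, and the part of hepatocyte RNA in it was not tested.

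**Figure D2:**
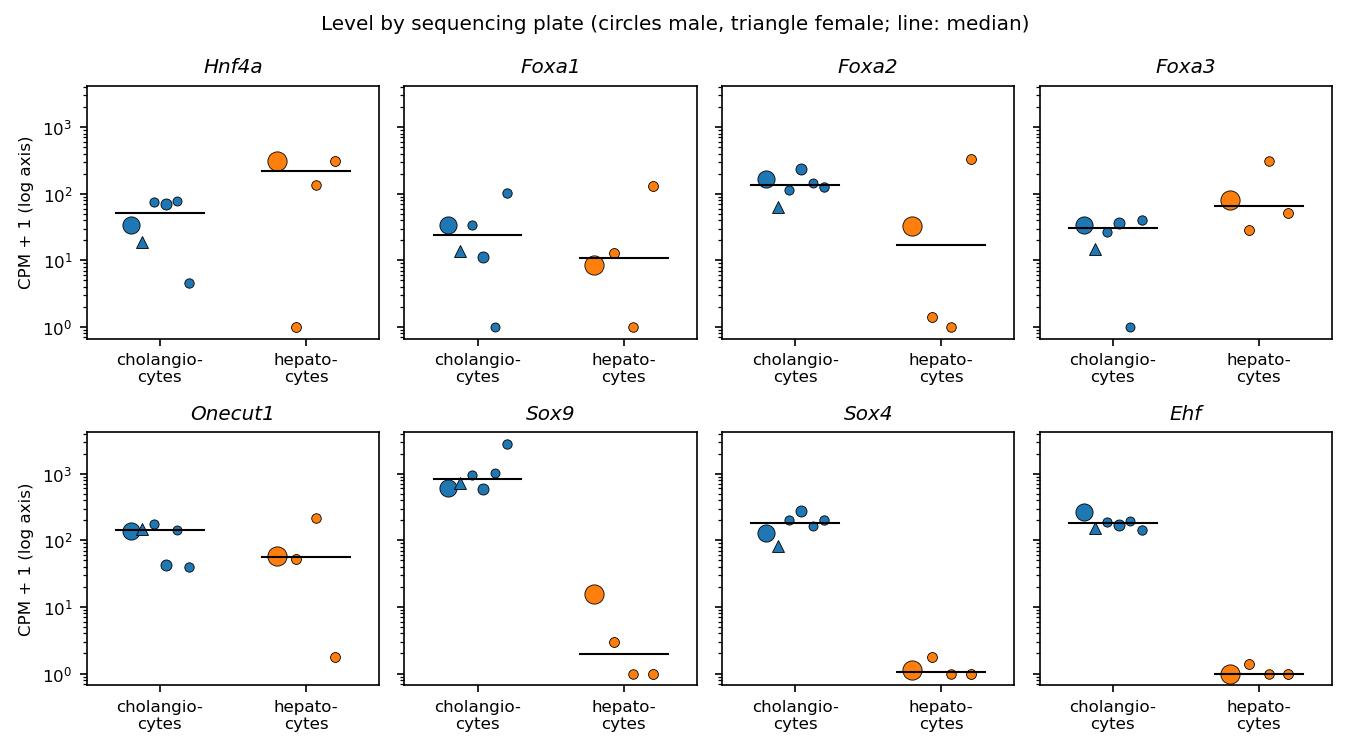
Level of the 8 genes (CPM + 1 of summed counts, log axis) on each plate with at least 5 cells, for cholangiocytes (6 plates) and hepatocytes (4 plates). Circles are male and the triangle female cells, larger symbols hold more cells, and lines are medians over plates. The plates of *Sox9*, *Sox4* and *Ehf* do not overlap between the cell types, and those of the other genes do. The share of all genes without such an overlap was not counted.

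The 3 *Foxa* genes differed in where they were counted. *Foxa3* (chr7:19013284-19023538, minus strand) was at 156 CPM in p1, 49.2 CPM in p3, 110 CPM in p4 and 46.5 CPM in p5, and at 31.3 and 13.5 CPM in male and female cholangiocytes. All 4 hepatocyte sums were above both cholangiocyte sums. The log2 fold change in cholangiocytes was -2.78 ± 0.88, which missed the threshold (adjusted p = 0.0521, edgeR's quasi-likelihood test), and it was called in 5 of 15 alternatives, among them DESeq2 (-2.86, adjusted p = 0.00186), thinned cells (adjusted p = 0.0401) and the fit without p3 (adjusted p = 0.0393). Without plate liver_128s, an alternative chosen after seeing the data that leaves 38 cells of p1 as the only hepatocyte sum, it was -3.93 (adjusted p = 0.000948 in edgeR's test), and with the plate as a block -1.15 (adjusted p = 0.876). Reads were present in 45.8% of p4 cells (32.7 to 59.2), against 13.9% of p2 cells (9.38 to 19.6) and 0.970% of non-parenchymal cells.

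*Foxa2* (chr2:148042877-148046969, minus strand) was at 168 and 62 CPM in male and female cholangiocytes, and at 98.5 CPM in p1, 16.2 CPM in p3, 17.5 CPM in p4 and 49.6 CPM in p5. The groups overlapped through p1, in which 1 cell gave 93.1% of the counts. It was read in 51.0% of cholangiocytes (43.8 to 58.3) and in 11.8% of hepatocytes (7.72 to 17.1), and after thinning in 40.1% and 9.85%. In contrast to these shares, the log2 fold change of the sums was 0.55 ± 0.91 (adjusted p = 0.760, edgeR's quasi-likelihood test), and it ran from -0.99 without plate liver_128s to 4.48 (adjusted p = 0.253 in edgeR's test) with sums per plate and the plate as a block.

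*Foxa1* (chr12:57540628-57546916, minus strand) was the least counted of the 3. It was at 31.2 and 12.8 CPM in male and female cholangiocytes, and at 39.0 CPM in p1, 4.45 CPM in p3, 10.7 CPM in p4 and 4.6 CPM in p5. In p1, 1 cell again gave 91.2% of the counts, and in p5 the only cell with reads gave all 44. Reads were found in 15.5% of cholangiocytes (10.7 to 21.3) and 6.40% of hepatocytes (3.45 to 10.7), and the log2 fold change was -0.21 ± 1.32 (adjusted p = 0.947, edgeR's quasi-likelihood test). It was above 0 in 5 of 15 alternatives and ran from -2.14 without plate liver_128s to 1.01 without p1. At least 1 *Foxa* gene was read in 64.9% of cholangiocytes, 49.2% of p4, 36.8% of p5, 34.8% of p3 and 28.1% of p1, and in 0 to 7.78% of the cells of a non-parenchymal cluster.

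*Onecut1* (chr9:74861921-74891781, plus strand) was shared between the parenchymal cell types. It was at 125 and 143 CPM in male and female cholangiocytes, and at 81.3 CPM in p1, 20.2 CPM in p3, 79.4 CPM in p4 and 34.3 CPM in p5. Both cholangiocyte pools were above every hepatocyte cluster, but plates overlapped, from 38.2 to 176 CPM in cholangiocytes and from 0.781 to 214 CPM in hepatocytes. The log2 fold change of 0.52 ± 0.72 did not pass the test (adjusted p = 0.703, edgeR's quasi-likelihood test). It was read in 54.6% of cholangiocytes (47.4 to 61.8), 37.3% of p4 (25.0 to 50.9) and 20.3% of p1 (11.3 to 32.2). Of its 4113 exon bases in GENCODE vM21, 2171 are shared with *Gm20649* on the same strand, and how the authors assigned reads of shared bases is not given in the sources used here, so its counts are uncertain.

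*Sox9* (chr11:112782224-112787760, plus strand) was read in the largest share of cholangiocytes of the 8 genes. It was at 741 and 705 CPM in male and female cholangiocytes, with reads in 183 of 194 cells (94.3%, 90.1 to 97.1), of which 162 had at least 20 counts. No single cell gave more than 2.24% of its counts. In hepatocytes it was at 0.754 CPM in p1, 27.5 CPM in p4 and 1.78 CPM in p5. In p3 it was read in 0 of 23 cells, a share of up to 13.0% by a bound of 3 cells, which is not a binomial interval. All hepatocyte sums were thus far below both cholangiocyte sums. The log2 fold change was 5.84 ± 1.5 (adjusted p = 0.0227, edgeR's quasi-likelihood test), with 1 sum per plate 7.83, and without the male or the female cholangiocyte pool the adjusted p was 0.109 and 0.103. The call was also lost with the pool as a block (5.94, adjusted p = 0.0962) and in the fit of 5 groups (5.19, adjusted p = 0.0564). Male cholangiocytes and the 4 hepatocyte sums belong to the same sample. Plates ranged from 592 to 2789 CPM in cholangiocytes and from 0 to 14.5 CPM in hepatocytes.

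The *Sox9* counts of hepatocytes came mainly from p4, the cluster with the highest *Cyp2f2* level (1164 CPM), an enzyme of periportal hepatocytes. The genes set beside *Sox9* in p4 were chosen after values were seen. Of 59 cells in p4, 16 had reads (27.1%, 16.4 to 40.3), with 1 to 85 counts per cell, and 6 cells had at least 20 counts. In contrast, none of the cells of p1, p3 or p5 reached 20 counts, and reads were found in 9.38% of p1 (3.52 to 19.3) and 10.5% of p5 (3.96 to 21.5). Among the 16 cells of p4 with *Sox9* reads, *Hnf4a* was read in 11 and *Cyp2f2* in 16, and *Krt19* in none, nor in any of the 43 other cells. The secreted phosphoprotein gene *Spp1* was read in 12 of the 16 cells (90.5 CPM) and in 24 of the 43 others (29.6 CPM), and *Epcam* in 2 and 2. *Spp1* was also read in 49 of 129 non-parenchymal cells of plate liver_128s (38.0%), and its level was higher beside *Sox9* reads in p1 (246 and 24 CPM) and p5 (43.5 and 10.7 CPM) as well, differences that were not tested. In p1, 3 of the cells with *Sox9* reads were on plate liver_319s and another on liver_048s, which held 21 and 110 cholangiocytes. They had 1 or 2 *Sox9* counts each. On plate liver_128s, 15 of 56 p4 cells (26.8%) had *Sox9* reads and 6 had at least 20 counts, whereas of 48 endothelial and immune cells of the same plate 3 (6.25%) had reads and none reached 20 counts.

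**Figure D3:**
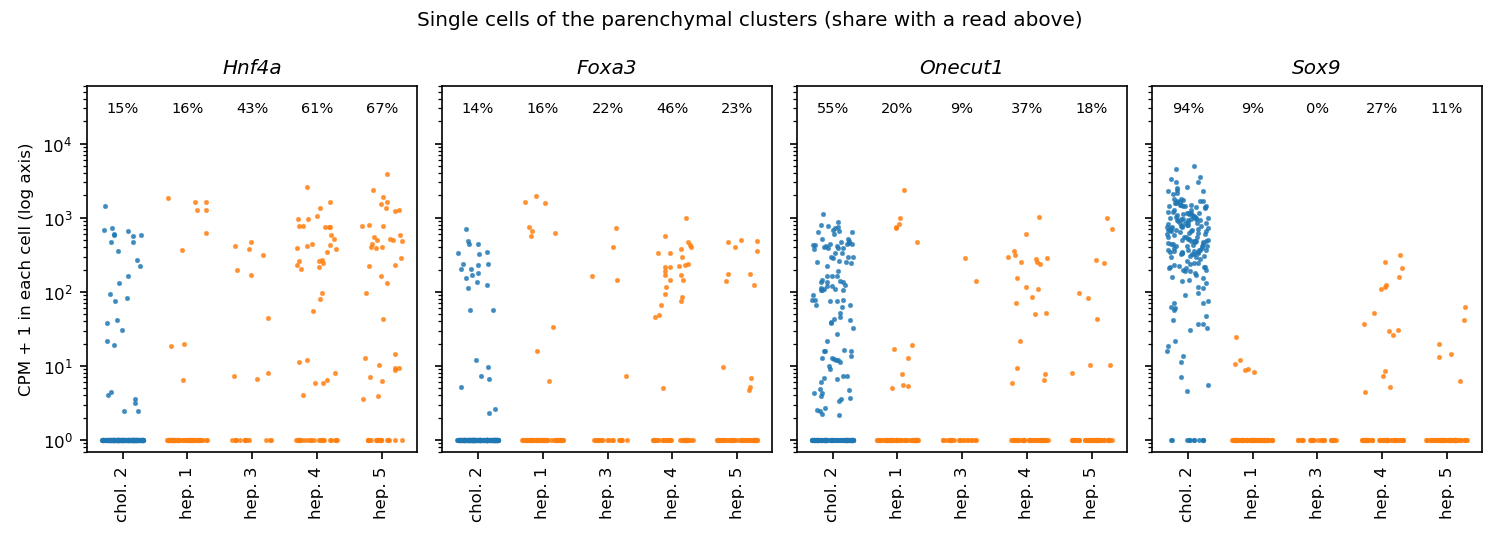
Level of *Hnf4a*, *Foxa3*, *Onecut1* and *Sox9* in each cell of the 5 parenchymal clusters (CPM + 1 on a log axis, 1 point per cell), with the share of cells with a read above each cluster. *Sox9* has reads in 94.3% of p2 and 27.1% of p4 cells, and *Hnf4a* in 14.9% of p2 and 61.0% of p4 cells.

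*Sox4* (chr13:28948919-28953713, minus strand) was at 149 and 78.8 CPM in male and female cholangiocytes, and at 0.323 CPM in p1, 26.4 CPM in p3, 0.228 CPM in p4 and 0.104 CPM in p5. The value of p3 came from 1 cell, which held all 101 counts of that cluster and 93.5% of the 108 counts of all hepatocytes. The log2 fold change was 3.32 ± 1.83 and did not pass (adjusted p = 0.263, edgeR's quasi-likelihood test). Without p3 it was 8.22 (adjusted p = 0.00436) and with 1 sum per plate 9.53 (adjusted p = 0.000663). It was read in 70.6% of cholangiocytes (63.7 to 76.9) and 3.94% of hepatocytes (1.72 to 7.62). Of its 4795 exon bases, 2616 are shared with the antisense gene *Gm26735*, and whether counting used the strand is not given in the sources used here.

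*Ehf* (chr2:103263433-103303278, minus strand) was at 248 and 150 CPM in male and female cholangiocytes, and was read in 135 of 194 cells (69.6%, 62.6 to 76.0). Among 203 hepatocytes it had 1 count in 1 cell of p1, against 14873 counts in cholangiocytes. The ratio of the CPM values was 8574, with a counting interval of 1539 to 338688. Each of the 6 cholangiocyte plates, from 140 to 269 CPM, lay above each hepatocyte plate, from 0 to 0.399 CPM. *Ehf* passed the filter on low counts through cholangiocytes alone, so its call in this comparison is a description.

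Levels were compared between genes per kilobase of annotated exon. In cholangiocytes *Sox9* led with 178 CPM per kb, followed by *Foxa2* with 66.5 CPM per kb and *Ehf* with 42.7 CPM per kb, and *Hnf4a* was last with 7.77 CPM per kb. In p4 and p5 *Hnf4a* led with 62.3 and 79.9 CPM per kb, followed by *Foxa3* with 53.8 and 22.8 CPM per kb. In p1 and p3 *Foxa3* led with 75.5 and 24.2 CPM per kb. The first gene of each cluster was the same when bases shared with another gene were left out of the length, but in cholangiocytes *Sox4* then rose from 29.7 to 65.3 and *Onecut1* from 30.8 to 65.2 CPM per kb, and *Ehf* moved from rank 3 to rank 5.

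Cells of p2 and p4 carried several members at once, with medians of 4 and 2, and cells of p1, p3 and p5 a median of 1. Cholangiocytes had reads of a mean of 3.85 of the 8 genes per cell, with at most 7, compared with 1.98 in p4, 1.37 in p5, 1.0 in p3 and 0.812 in p1, and from 0.128 to 0.733 in non-parenchymal clusters. After thinning, the means were 3.31 in p2, 1.76 in p4, 1.05 in p5, 0.870 in p3 and 0.594 in p1. *Sox9* and *Ehf* were read together in 131 of 194 cholangiocytes, *Sox9* and *Sox4* in 132, and *Sox9* and *Onecut1* in 102, where the product of both shares would be 127, 129 and 99.99 cells. All 29 cholangiocytes with *Hnf4a* reads also had *Sox9* reads, where the product would be 27.4, and in p4 *Hnf4a* and *Sox9* were read together in 11 of 59 cells, where 9.76 would be the product of both shares.

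Against the non-parenchymal classes, *Sox9* was higher in cholangiocytes by 8.84 ± 0.71 (adjusted p = 0.000253, edgeR's quasi-likelihood test) and *Sox4* by 2.79 ± 0.48 (adjusted p = 0.00751), beside 6.7% of all genes called higher and a median over all genes of -0.48. This fit used 9 sums of 5 groups by pool, and without the male cholangiocyte pool *Sox4* was no longer called (2.17, adjusted p = 0.0702). The other 6 members were also called higher, but they had 118 (*Onecut1*) to 537 (*Hnf4a*) counts in the 3094 non-parenchymal cells together and passed the filter on low counts through the parenchymal sums, so their calls are descriptions. Their log2 fold changes ran from 5.52 for *Hnf4a* to 10.10 for *Ehf*.

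In hepatocytes against the same classes, hepatocytes entered the fit as 1 sum, assumed to vary like the other groups. *Foxa3* was higher by 10.16, *Hnf4a* by 9.55, *Foxa2* by 9.49, *Onecut1* by 9.34 and *Foxa1* by 9.04 on the log2 scale, which are again descriptions, beside 8.0% of all genes called higher and a median over all genes of -1.56. *Sox9* was higher by 3.66 ± 0.72 (adjusted p = 0.0120 in edgeR's test), a call that rested on plate liver_128s, since without its cells the log2 fold change was -0.49 (adjusted p = 0.853), and it was also lost with sums per plate (1.61, adjusted p = 0.232). *Sox4* (-1.59 ± 0.80, adjusted p = 0.244) and *Ehf* (-1.80 ± 1.95, adjusted p = 0.615) did not pass in edgeR's test. With sums per plate *Sox4* was called lower (-6.08, adjusted p = 0.00845), and without plate liver_128s its log2 fold change was 0.024. The comparisons of cholangiocytes and of hepatocytes share their non-parenchymal sums.

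Outside the parenchyma, *Hnf4a*, the *Foxa* genes and *Onecut1* had reads in few cells. They were read in 2.55%, 0.549% (*Foxa1*), 1.10% (*Foxa2*), 0.970% (*Foxa3*) and 2.23% (*Onecut1*) of the 3094 cells, and each had at most 4 cells with 20 counts or more. The clusters with the highest *Hnf4a* levels, i4 (10.3 CPM), i6 (6.46 CPM) and e8 (5.77 CPM), owed 99.2%, 86.0% and 92.8% of these counts to 1 cell each. On plate liver_128s, 12 of 129 non-parenchymal cells (9.30%, 4.90 to 15.7) had *Hnf4a* reads, none with 20 counts, compared with 0 to 6.90% on the other plates.

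*Sox4* was broadly present in endothelium. It was at 44.9 and 59.7 CPM in the endothelial pools of male and female cells, at 22.0 and 15.5 CPM in mesenchymal cells and at 4.54 and 1.90 CPM in immune cells. Both endothelial pools were above the mesenchymal and immune pools and below both cholangiocyte pools. Among the endothelial clusters the level ran from 10.8 CPM in e4, the lymphatic cluster, to 73.3 CPM in e2, which holds the portal vein cells, but e2 was the highest in neither sex. In male cells e5 (61.8 CPM) and e3 (61.3 CPM) were above e2 (24.6 CPM), and in female cells e3 (208 CPM in 6 cells), e5 (117 CPM in 31 cells) and e2 (115 CPM in 60 cells) were above the 78.8 CPM of cholangiocytes. Of 1106 endothelial cells 294 had reads (26.6%, 24 to 29.3), and 18.1% after thinning, against 7.83% of immune cells. Compared with the mean of the other 4 groups, *Sox4* was higher in endothelial cells by 1.91 ± 0.48 on the log2 scale (adjusted p = 0.0400, edgeR's quasi-likelihood test), beside 7.07% of all genes called higher and a median over all genes of 0.26. The call was lost with thinned cells (1.34, adjusted p = 0.169), without plate liver_128s (1.52, adjusted p = 0.0767), with sums per plate (1.48, adjusted p = 0.0924) and without the male or the female endothelial pool (2.12, adjusted p = 0.137, and 1.67, adjusted p = 0.247). It was lost also without the male or the female mesenchymal pool (adjusted p = 0.0575 and 0.0778).

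*Sox9* was counted in part of the mesenchymal cells. Its level was 24.7 and 3.85 CPM in mesenchymal cells of male and female mice, compared with 0.266 and 0.479 CPM in endothelial and 0.265 and 0.672 CPM in immune cells. All 339 female mesenchymal cells were on 1 plate, liver_058s, so that sex and plate cannot be told apart in mesenchymal cells. Both mesenchymal pools were above all endothelial and immune pools. With the sexes together, the highest mesenchymal level was 50.2 CPM in m4, the peribiliary fibroblasts, with 56.8 CPM in 89 male cells and reads in 0 of 9 female cells. By the bound of 3 cells, this allows a female share of up to 33.3%. The stellate cell cluster m3 was at 26.6 CPM (26.8 in male and 26.0 in female cells), and the portal fibroblast clusters m1, m10 and m8 were at 26.2, 21.8 and 18.1 CPM, of which 1 cell gave 51.9%, 29.2% and 97.6%. In m1 male cells were at 52.2 CPM and female cells at 5.94 CPM, and the highest male value was 94.8 CPM in m6, from 1 of 9 cells. Of 1337 mesenchymal cells, 30 had at least 20 counts, 9 of them in m4, while none of the endothelial and immune cells did. The log2 fold change of mesenchymal cells against the other 4 groups was 1.26 ± 0.63 and did not pass (adjusted p = 0.271, edgeR's quasi-likelihood test), beside 9.92% of all genes called higher and a median over all genes of 0.37. Of the other members, *Hnf4a*, *Foxa2* and *Onecut1* were called lower in mesenchymal cells, beside 1.69% of all genes, which describes their level in the parenchymal groups of that mean. The mean of those groups includes cholangiocytes, and without plate liver_128s the value was 2.39 (adjusted p = 0.0415), and without the filter on low counts it was 1.28 (adjusted p = 0.0403) in edgeR's test. Without the male mesenchymal pool it was -0.80 (adjusted p = 0.683). In endothelial cells the same contrast gave -5.57 ± 0.97 (adjusted p = 0.00961), beside 3.24% of all genes called lower, and it was lost without the male or the female endothelial pool (adjusted p = 0.0808 and 0.0586). *Foxa3* and *Onecut1* were also called lower in endothelial cells, with the same limit.

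**Figure D4:**
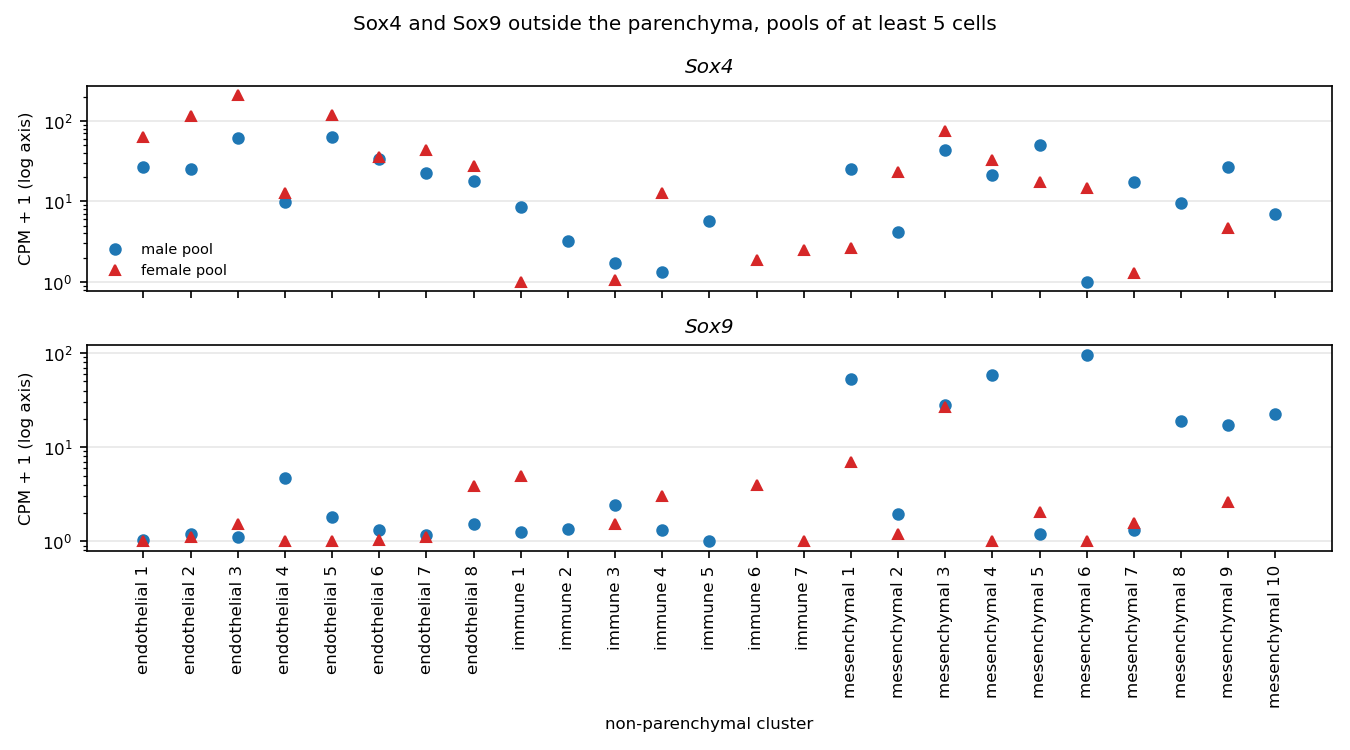
Level of *Sox9* and *Sox4* (CPM + 1 of summed counts, log axis) in the endothelial, immune and mesenchymal clusters, with male pools as circles and female pools as triangles where they held at least 5 cells. *Sox4* is spread over the 8 endothelial clusters, and *Sox9* is at most 3.92 CPM in endothelial and immune pools, with its highest point, 94.8 CPM in m6, from 1 cell.

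Reads of *Sox9* in endothelial and immune cells were more frequent on plates that held cholangiocytes. Of the endothelial and immune cells, 46.3% (38.0 to 54.7) had a *Sox9* read on plate liver_062s, which held 36 cholangiocytes, 34.8% (16.4 to 57.3) on plate liver_Acta2_184s with 9, 19.2% (13.4 to 26.3) on plate liver_319s with 21 and 6.25% (1.31 to 17.2) on plate liver_128s with 8. On the 9 plates without cholangiocytes the share was 0 to 3.03%. The median was 1 count per cell with reads on each of the 4 plates with cholangiocytes, and no cell reached 20. Cells of the sinusoidal cluster e8 had reads in 46.2% on plate liver_062s and 4.85% on the other plates, and the Kupffer cell cluster i6 in 49.3% and 8.70%. What part of these reads came from cholangiocyte RNA was not tested.

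**Figure D5:**
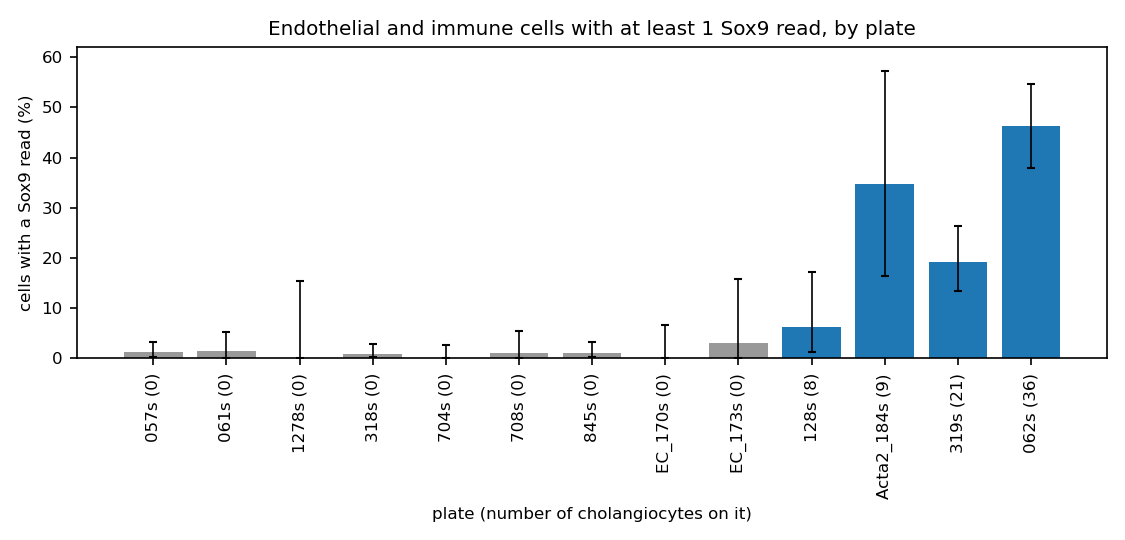
Share of endothelial and immune cells with at least 1 *Sox9* read on each plate with at least 20 such cells, with exact 95% binomial intervals as error bars and the number of cholangiocytes on the plate in parentheses. The 4 plates with cholangiocytes (blue) stand between 6.25% and 46.3%, and the 9 plates without (grey) at 3.03% or below.

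Other genes of the same networks were counted by lists, and from each list the called genes with the largest fold changes are named. Genes with hardly any counts in one cell type passed the filter on low counts through the other, so their calls are descriptions and they are given by counts. Of 20 further transcription factors of the hepatocyte network, 7 were lower in cholangiocytes than in hepatocytes and none was higher, beside 7.28% and 12.3% of all genes (median -2.86 on the log2 scale, beside 0.13 over all genes). The lipid sensor *Ppara* was lower by -7.31 ± 0.86 (adjusted p = 0.00105, edgeR's quasi-likelihood test), at 1.55 CPM in cholangiocytes and 163 CPM in hepatocytes. *Hlf* (-3.76 ± 1.07, adjusted p = 0.0345), *Creb3l3* (-3.68 ± 0.75, adjusted p = 0.0115) and the bile acid receptor *Nr1h4* (-3.64 ± 0.65, adjusted p = 0.00684) followed.

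Of the 18 biliary and epithelial transcription factors tested, 9 were higher in cholangiocytes and none was lower, beside 12.3% and 7.28% of all genes (median 3.55, and 4.04 with the 5 genes of at most 3 counts in a group set at the bound of 3 counts). *Foxj1*, the factor of motile cilia, had 4603 counts in cholangiocytes and 1 in hepatocytes, the epithelial factor *Grhl2* 4978 and 1, *Klf5* 4114 and 1, and *Ovol2* 688 and 0. None of the 6 tested genes of the 13 other SOX genes was called (median -0.36). Of 4 tested ELF and ESE genes related to *Ehf* (median 2.89), 1 was called higher, *Elf4*, with 1384 counts in cholangiocytes and 7 in hepatocytes. In hepatocytes against the non-parenchymal classes, in the fit with 1 hepatocyte sum, 13 of the 20 hepatocyte network factors were called higher and none lower (median 3.94). Of the 20 biliary factors 4 were higher and 3 lower (median -0.72), beside 8.0% and 5.26% of all genes and a median of -1.56 over all genes. In cholangiocytes against the same classes, 5 of the 20 hepatocyte network factors were higher and 1 lower, and of the 20 biliary factors 9 were higher and 1 lower, beside 6.7% and 3.84% of all genes.

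Further lists hold genes that HNF4A is known to bind, and bile duct genes downstream of SOX9 or of the Notch and YAP pathways. Of 19 tested plasma protein and enzyme genes with HNF4A-bound promoters, 16 were lower in cholangiocytes and none was higher, beside 7.28% and 12.3% of all genes (median -6.70, and 0.13 over all genes). *Cyp3a11*, a drug-metabolizing enzyme, had 1 count in cholangiocytes and 29523 in hepatocytes, and the coagulation factor gene *F7* 0 and 1220. The coagulation factor gene *F10* had 23 and 7835 counts, and *Cps1* of the urea cycle 153 and 23310, with none of the 153 in the female pool. In hepatocytes against the non-parenchymal classes, again with 1 hepatocyte sum, the median of the 19 was 6.81, beside -1.56 over all genes. In cholangiocytes against these classes 3 were higher and 2 lower, beside 6.7% and 3.84% of all genes.

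Of 16 tested genes described downstream of SOX9, Notch or YAP in bile ducts, 14 were higher in cholangiocytes than in hepatocytes and none was lower, beside 12.3% and 7.28% of all genes (median 7.49, and 7.28 with the bound of 3 counts). The YAP target *Ankrd1* had 14282 counts in cholangiocytes and 0 in hepatocytes. The keratin gene *Krt19* had 30791 and 5 counts, and *Krt7* 29457 and 8. Against the non-parenchymal classes 12 of the 16 were higher in cholangiocytes and 1 lower, beside 6.7% and 3.84% of all genes, and in hepatocytes none was higher and 3 were lower, beside 5.26% of all genes called lower.

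The genes whose levels were most like those of each member over the 30 clusters were named by Pearson's r of log2(CPM + 1) among 19722 genes. The clusters share plates, pools and depth, so r is a description. *Ehf* was most like *Kif12* (r = 0.994), *Slc4a9* (0.993) and *Epn3* (0.993), and *Foxa3* most like *X5033403H07Rik* (0.977), *Gckr* (0.972), the regulator of glucokinase, and *Plin5* (0.972). *Foxa2* was most like *Onecut2* (0.962), *Slc2a2* (0.960), the glucose transporter of hepatocytes, and *Mia2* (0.957), and *Hnf4a* most like *Anks4b* (0.945), *Adh4* (0.945) and *Gm15756* (0.944). The closest genes of *Onecut1*, *Gm20649* (0.997), and of *Sox4*, *Gm26735* (0.929), are the genes that share exon bases with them. *Foxa1* was most like *Gm20649* (0.955) and *Onecut1* itself (0.948), and *Sox9* had the lowest first value, 0.822 with *Gm9934*.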

How the data were processed

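The authors generated Smart-seq2 libraries from cells sorted into 384-well plates, sequenced them as single 50 base-pair reads, and deposited 1 table of raw read counts per gene and cell. The submitters' processing notes name bcl2fastq, Bowtie, Bowtie2, featureCounts, Subread and Seurat with GRCm38/mm10, and the use of strand, of duplicates and of reads on shared exons is not given in the sources used here. Before deposit the authors had removed shallow cells, cells rich in mitochondrial or spike-in reads, putative doublets (by an upper limit on detected genes) and cells that mixed cell types. The deposited annotation gives class, sex, cluster (pagoda2) and cell type.

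ERCC spike-ins (92 rows) were left out, leaving 46517 genes in 3491 cells with 47063 to 1128421 counts, and no cell name occurred in more than 1 sample. Counts were summed per group and pool of a sex with at least 5 cells, so the 2 female hepatocytes entered no fit. Genes were filtered with filterByExpr, normalized by TMM and tested with edgeR 4.0.16 (glmQLFit, glmQLFTest, limma 3.58.1, R 4.3.3) with Benjamini-Hochberg adjustment over all genes tested, and called at an adjusted p under 0.05 and an absolute log2 fold change of at least 1. Python 3.11.15, numpy 2.4.6, pandas 2.3.3, scipy 1.17.1 and matplotlib 3.10.9 served for the rest. CPM is counts per 1000000 gene counts of the cells summed. Shares have exact binomial 95% intervals, thinned shares used 50000 counts per cell (seed 7), with 13 shallower cells left out, of which 2 were parenchymal, and 20 counts is the authors' detection limit. The bound for a gene without reads is 3 counts, and 3 cells for a share of cells. Lengths are unions of GENCODE vM21 exons. Named are the 8 members, for each the 3 genes of at least 300 counts with the highest Pearson correlation, and from each list up to 4 called genes with the largest fold change, of which 1 is not reported here. A different test (DESeq2 1.42.0), no filter, thinned cells, sums per plate, blocks, a minimum of 10 cells, other correlations and each pool left out were tried. The scripts were tested on simulated counts. The members and lists were chosen with earlier results of these data known.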

Additional observations from a re-analysis of the deposited data

Results flagged for a closer look

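Levels on the plates were checked for a plate far from the others, in 16 groups of 4 or 6 plates, and 7 were far out. For normally spread values about 1 in 20 groups would be by chance, a rate that was not measured here and need not hold for counts near 0, such as *Ehf* in hepatocytes, where 1 count on 1 plate is enough. In cholangiocytes, plate liver_Acta2_184s, with 9 cells, was the highest of 6 plates for *Sox9* at 2789 CPM, next to 1007 CPM, and for *Foxa1* at 102 CPM, next to 33.3 CPM. In hepatocytes, plate liver_707s, with 12 cells of p1, was the highest of 4 plates for *Foxa2* at 333 CPM and for *Foxa1* at 129 CPM, and 1 of its cells gave 99.9% of the *Foxa2* and 99.7% of the *Foxa1* counts. Plate liver_128s was the highest for *Sox9* in hepatocytes at 14.5 CPM, and it is the plate that holds 56 of the 59 cells of p4. Plate liver_319s was the highest for *Sox4* at 0.799 CPM and *Ehf* at 0.399 CPM, which are 2 counts and 1 count in 12 hepatocytes of a plate that also holds 21 cholangiocytes.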

How the results depend on the processing

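The pools were numbered in accession order, 1 for male and 2 for female cells, and the deviations of same-numbered pools correlated at 0.059 to 0.091 over 27328 genes, so the numbers were not taken to pair the samples. With the pool as a replicate block, genes higher in cholangiocytes than in hepatocytes fell from 1779 to 295 and genes lower from 1054 to 340, *Foxa1* was at 0.32, and the calls of *Hnf4a* (-3.28, adjusted p = 0.104) and *Sox9* (5.94, adjusted p = 0.0962) were lost in edgeR's test.

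For cholangiocytes against hepatocytes the counts of genes higher and lower were 906 and 395 with sums per plate, 333 and 584 with the plate as a block, and 4334 and 2052 without plate liver_128s, a setting chosen after seeing the data, as was the length without shared bases. Without that plate hepatocytes are 1 sum of 38 cells of p1. A fit of 5 groups called 992 higher and lost the calls of *Hnf4a* (-4.04, adjusted p = 0.155) and *Sox9* (5.19, adjusted p = 0.0564) in edgeR's test, and DESeq2 called 1940 lower. *Foxa1* changed sign with thinned cells (0.13) and with the plate as a block (0.43), *Foxa2* without plate liver_128s (-0.99) and *Hnf4a* with the plate as a block (1.84). *Sox4* was called without the filter, in the fit of 5 groups, without plate liver_128s and with the plate as a block, with adjusted p-values of 0.0294, 0.0389, 0.000827 and 0.000506 in edgeR's test. DESeq2 gave no adjusted p for *Sox9* and *Sox4* here.

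For cholangiocytes against the non-parenchymal classes, 1050 genes were lower, and 2736 with DESeq2, 2078 without the filter and 1790 with sums per plate. For hepatocytes, 2186 were higher (3299 with DESeq2) and 1437 lower (4111 with DESeq2, 2386 without the filter, 3509 with sums per plate, 3853 without plate liver_128s). Without plate liver_128s *Sox9* was at -0.49 and *Sox4* at 0.024, and with sums per plate *Sox9* was at 1.61 (adjusted p = 0.232) and *Sox4* at -6.08 (adjusted p = 0.00845) in edgeR's test. For endothelial cells, 1933 were higher (3238 without the filter, 4027 with sums per plate) and 885 lower (2657 with DESeq2, 1717 without the filter, 1656 with sums per plate). For mesenchymal cells, 2712 were higher (4247 without the filter) and 462 lower (1592 with DESeq2, 1014 without the filter), and *Sox4* was at -0.14 without plate liver_128s. The cause of these changes was not tested.

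Leaving out each sum in turn gave 176 to 1931 genes higher and 316 to 1112 lower in cholangiocytes against hepatocytes, 1123 to 1893 and 704 to 1078 in cholangiocytes against the non-parenchymal classes, 1722 to 2479 and 820 to 2178 in hepatocytes, 694 to 2282 and 230 to 1006 in endothelial cells, and 1425 to 2856 and 125 to 543 in mesenchymal cells. The lowest counts of the first comparison were those without a cholangiocyte pool. *Foxa1* ranged from -1.10 to 1.01 and *Foxa2* from -0.46 to 1.30 against hepatocytes, and in mesenchymal cells *Sox9* from -0.80 to 2.07 and *Sox4* from -0.14 to 0.55. A group left with 1 sum was assumed to vary like the others. Without the hepatocyte sum the fits of 5 groups could not be made for the hepatocyte contrast or the means over all other groups. A minimum of 10 cells gave the same sums.

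Of 24 genes most alike, 3 remained with Spearman's correlation and 8 with a pseudocount of 0.1 CPM. The cluster with the highest level was kept for 7 of 8 members with the mean over cells and for 6 of 8 with thinned cells (*Foxa1* moved from p1 to p2, *Foxa3* from p1 to p4). The first comparison has 6 sums and the others 9, and hepatocytes hardly any female cells. Sums that rest largely on single cells limit *Foxa1*, *Foxa2* and *Sox4* in hepatocytes.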
